A study of Bos taurus with 6 samples.

Results

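Lysosomes are the acidic compartments in which cells break down proteins, sugar chains and lipids. Most of their soluble enzymes are made as inactive precursors and carried there on mannose-6-phosphate receptors, a proton pump acidifies the lumen, and a coat of glycosylated membrane proteins shields the limiting membrane. The transcription factors TFEB and TFE3 are known to activate many lysosomal genes when they are in the nucleus, and in the mammary gland lysosomal proteases are known for their part in the regression of the tissue after lactation. The genes described here are 31 named lysosomal enzymes, membrane proteins and regulators, chosen by symbol from the 28200 rows of the count table. All 31 symbols were found, each on 1 row.

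RNA was sequenced from bovine primary mammary epithelial cells (BMECs) of the Holstein breed, obtained by enzyme digestion of mammary tissue. The groups are wild-type cells (3 libraries) and cells in which the gene of the transcription factor KLF6 had been disrupted with CRISPR/Cas9 (3 libraries). The labels give no other treatment, no animal age, and no statement on whether the knockout cells were 1 clone or a pool, or which libraries are from separate cultures. The p-values are thus about the spread of these 6 libraries alone, and that spread may be technical. Effects of the loss of KLF6 and of deriving the edited cells cannot be told apart.

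Total counts per library lay between 17512892 and 18724879. KLF6 (chromosome 13, 44597240 to 44605699) was read at 503, 496 and 558 CPM (counts per 1000000 of the scaled library) in the wild-type libraries and at 224, 230 and 217 CPM in the knockout libraries, a log2 fold change of -1.21 ± 0.05 (SE) with an edgeR adjusted p = 2.25e-13. The labels call the knockout complete; counts per gene do not show an edit within a transcript that is still read. Wild-type replicate 3 stood apart: a chi-square per degree of freedom of its counts was 9.14 and 9.12 against the other wild-type libraries, where 1 is counting noise alone, and 2.27 to 2.79 for the other pairs within a genotype. The epithelial markers EPCAM, KRT5 and KRT8 were read at 165, 4679 and 7563.5 CPM in wild-type libraries. In knockout libraries they were at 167, 2018 and 2450 CPM. Of the other epithelial markers, KRT7, KRT18 and KRT19 were lower in knockout, KRT14 was higher, and CDH1 did not pass the test. The leukocyte marker PTPRC and the osteoclast marker DCSTAMP had 0 reads in all 6 libraries. Because these are bulk samples, fewer cells of a type and less RNA per cell cannot be told apart.

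In the knockout libraries the lysosomal genes did not move as 1 block. The cysteine proteases CTSC, CTSH, CTSB and LGMN rose, as did the glycosidases GUSB, NEU1 and GLA, the acid ceramidase gene ASAH1 and the tetraspanin gene CD63. TFEB, the glycogen-degrading enzyme gene GAA and the low-level cathepsins CTSK, CTSS and CTSL fell. An abundant cathepsin outside the chosen genes, the CTSL2 row described as cathepsin L1, fell as well. Its mean went from 923 CPM in wild type to 369 CPM in knockout, 2.50-fold lower (edgeR adjusted p = 4.87e-15). CTSL2 was picked after its values were seen and is not in the counts of lysosomal genes below unless named. CTSD, SCARB2, TPP1, NAGLU, HEXA, MCOLN1 and TFE3 did not pass the test.

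Of the 31 genes, 28 had enough counts to be tested. At an adjusted p under 0.05 (edgeR quasi-likelihood test, p adjusted over all 13390 genes tested), 14 rose, 7 fell and 7 did not pass. The share called, 75.0%, was near the 74.6% of all genes tested, so the number of calls is not a result about these genes. Higher calls made up 50.0% of the lysosomal genes against 37.1% of all genes, and lower calls 25.0% against 37.6%. The median log2 fold change was 0.13, beside -0.01 over all genes. CTSL and CTSS passed the filter on low counts only through the wild-type libraries, where they are high, so their direction was fixed in part by the filter. Among the 26 genes with at least 10 reads in all 6 libraries, 14 rose, 5 fell and 7 did not pass.

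With a change of at least 1.5-fold also required, 9 rose and 5 fell, where the same rule called 20.1% of all genes higher and 21.5% lower. CTSL and CTSS, whose direction was fixed in part by the filter, are among the 5 that fell. All knockout libraries lay above all wild-type libraries for 17 of the 31 genes and below them for 8, while 6 overlapped (over all genes tested, 37.9% lay above and 38.3% below). Unlike these percentages, the counts include untested genes: GM2A among those above, and CTSZ and SMPD1 among those that overlapped. CTSL and CTSS are among the 8 below. Replicates were close: over those 26 genes the SD was a median 3.14% of the mean in wild-type libraries and 2.25% in knockout libraries.

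**Figure D1:**
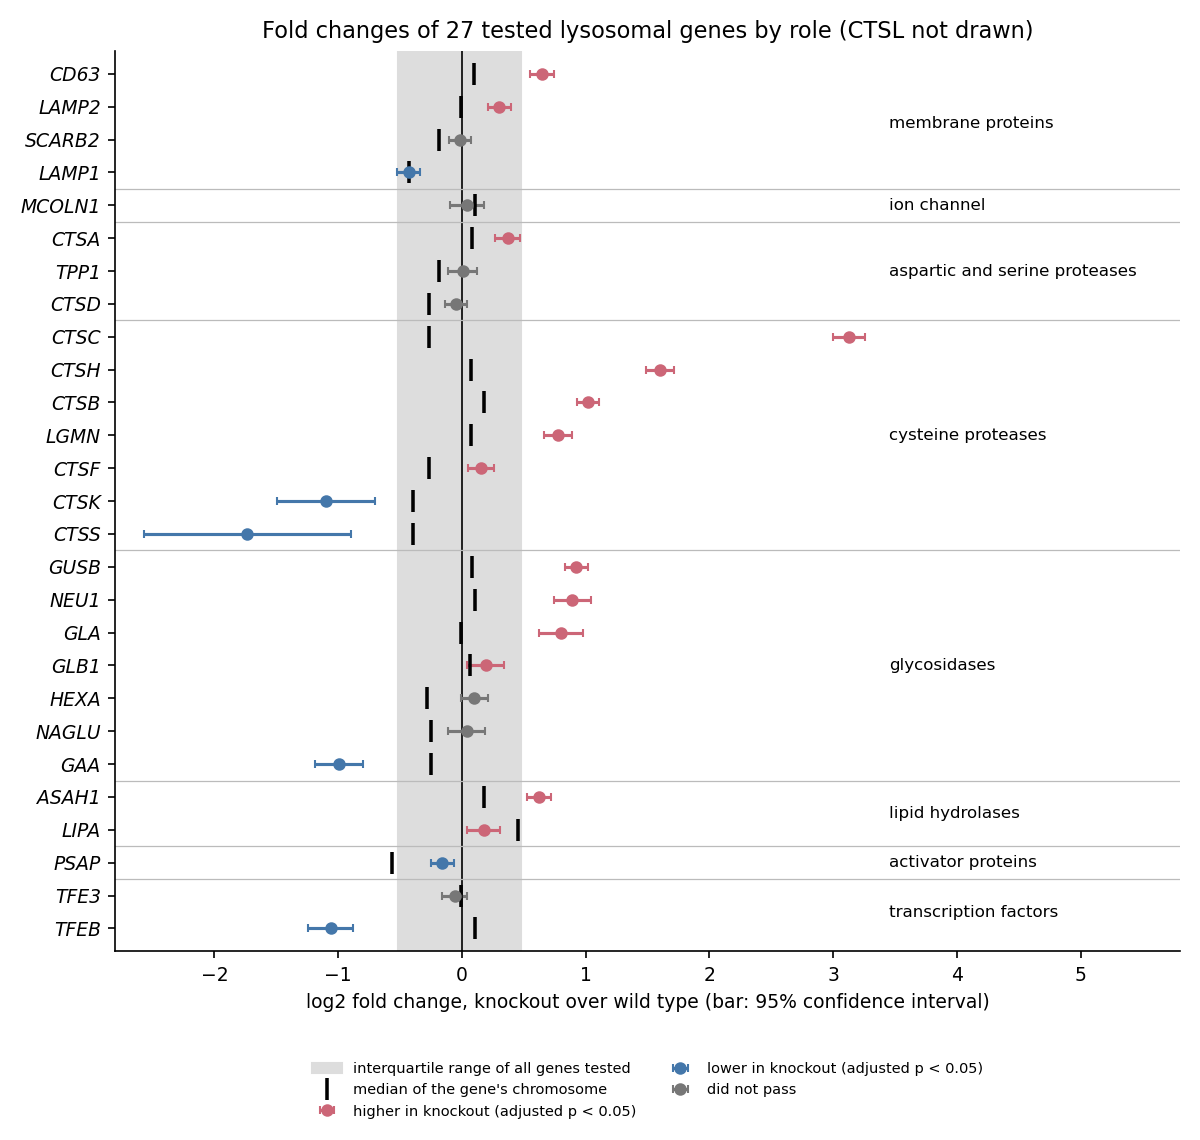
Log2 fold changes (knockout over wild type) of 27 tested lysosomal genes on the x axis, grouped by role on the y axis, with 95% confidence intervals; the grey band is the interquartile range of all genes tested and the black tick is the median of each gene's chromosome. CTSC at 3.13 and CTSH at 1.60 lie farthest to the right, CTSS at -1.73 farthest to the left, and LAMP1 lies on its chromosome's tick. CTSL, with 0 reads in the knockout libraries, is not drawn.

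Membrane proteins of the lysosome went both ways. LAMP1 and LAMP2 are the abundant glycoproteins that coat the inner face of the limiting membrane. LAMP1 (chromosome 12, 86593182 to 86605278) was at 456, 442 and 430 CPM in the wild-type libraries and at 332, 331 and 322 CPM in the knockout libraries. The groups did not overlap, and LAMP1 fell 1.35-fold (log2 fold change -0.43 ± 0.04, edgeR adjusted p = 4.46e-08). Its fall was the same size as the median of its chromosome, -0.43, and after removal of the chromosome medians its log2 fold change was -0.0036 (edgeR adjusted p = 0.946).

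LAMP2 moved the other way, from 242 ± 9.54 to 298 ± 1.36 CPM (SD, n = 3 each, as for all means below), a log2 fold change of 0.30 ± 0.04 (edgeR adjusted p = 6.23e-06). CD63, a tetraspanin of late endosomes, lysosomes and exosomes, was at 502, 470 and 520 CPM in wild type and at 780, 753 and 804 CPM in knockout. All its knockout libraries were above all its wild-type libraries, and CD63 rose 1.57-fold (0.65 ± 0.05, edgeR adjusted p = 5.02e-10). SCARB2, the receptor that carries glucocerebrosidase to the lysosome, had overlapping groups at 374 ± 14.7 and 370 ± 4.99 CPM, with a fold of 0.989 (95% interval 0.927 to 1.05).

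MCOLN1, the calcium channel that releases calcium from the lysosome, stood at 35.4 ± 1.36 CPM in wild type and 36.5 ± 0.243 CPM in knockout, and its fold lay between 0.935 and 1.13 (95% interval). For CTSD, SCARB2, TPP1, NAGLU, HEXA, MCOLN1 and TFE3 together, the 95% intervals of the fold ran from 0.892 to 1.15.

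The aspartic and serine-type proteases changed little. CTSD, the main aspartic protease of lysosomes, was among the most abundant of the 31 transcripts, at 817, 773 and 812 CPM in wild type and 789, 752 and 777 CPM in knockout. The groups overlapped, and its log2 fold change was -0.05 ± 0.04 (edgeR adjusted p = 0.277). Of 15 alternatives, 1 called CTSD lower, and 1, with the chromosome medians taken out, called it higher (0.21). TPP1, a serine protease that removes tripeptides, was at 77.3 ± 0.551 and 77.6 ± 4.75 CPM, with a fold between 0.926 and 1.09 (95% interval). CTSA, a serine carboxypeptidase that also protects beta-galactosidase and neuraminidase in a complex, rose from 140 ± 6.96 to 181 ± 1.00 CPM (0.37 ± 0.05, edgeR adjusted p = 1.28e-06).

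Of the 8 tested cysteine proteases 5 rose and 3 fell, where 74.6% of all genes were called. Without CTSL and CTSS, which had at least 10 reads in wild-type libraries only, 5 rose and 1 fell. CTSC (ENSBTAG00000011100, chromosome 29, 7375472 to 7417234), the dipeptidyl peptidase that activates granule serine proteases, was at 19.5, 21.2 and 18.1 CPM in the wild-type libraries and at 173, 167 and 173 CPM in the knockout libraries. No library of one genotype came near the other. CTSC rose 8.74-fold (3.13 ± 0.06, edgeR adjusted p = 6.64e-18), the largest rise among the 28 genes tested, although the median gene of its chromosome was lower in knockout (-0.26).

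CTSH (chromosome 21, 25201460 to 25222224), which trims amino acids from the ends of proteins, was at 241, 222 and 205 CPM in wild type and 681, 661 and 683 CPM in knockout. It rose 3.03-fold (1.60 ± 0.05, edgeR adjusted p = 8.52e-15). CTSB (chromosome 8, 7566095 to 7586862), an endo- and exopeptidase, was already abundant in wild type at 648, 622 and 660 CPM and reached 1327, 1274 and 1313 CPM in knockout. CTSB rose 2.03-fold (1.02 ± 0.04, edgeR adjusted p = 1.82e-13), and in absolute terms its gain exceeded that of any other of the 31 genes. For CTSH and CTSB alike, the knockout libraries formed a tight group above all wild-type libraries.

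LGMN, the asparaginyl endopeptidase legumain that also processes cathepsins, rose from 54.8 ± 1.79 to 93.9 ± 3.65 CPM (0.78 ± 0.05, edgeR adjusted p = 3.56e-10). CTSF differed by less, from 75.5 ± 1.80 to 84.0 ± 1.52 CPM (0.15 ± 0.05, edgeR adjusted p = 0.0107), and did not pass with scaling by library size only (0.10, edgeR adjusted p = 0.0701).

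CTSK, CTSS and CTSL, which fell, were read at low levels in both genotypes. CTSK and CTSS, best known from osteoclasts and from antigen-presenting cells, are neighbours on chromosome 3 with 15.4 kb between them. CTSK was at 4.52, 6.22 and 4.70 CPM in wild type and 2.47, 2.12 and 2.62 CPM in knockout, a log2 fold change of -1.10 ± 0.19 (edgeR adjusted p = 3.88e-05). CTSS was at 1.13, 1.07 and 0.820 CPM in wild type against 0.230, 0.326 and 0.334 CPM in knockout, on 55 and 16 reads in all, a log2 fold change of -1.73 ± 0.40 (edgeR adjusted p = 0.000720). Both groups of libraries were apart for each gene, and the median gene of chromosome 3 was lower as well (-0.39).

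CTSL (chromosome 8, 80974612 to 80980412) had 52, 62 and 51 reads in the wild-type libraries and 0 in each knockout library. Against a floor of 3 counts over the knockout group it was at least 54.1-fold lower (edgeR adjusted p = 3.87e-09). This row is a minor one: the count table holds another row, CTSL2 (ENSBTAG00000017077, chromosome 8, 83553382 to 83558696), which it describes as cathepsin L1. A RefSeq gene table of assembly ARS-UCD2.0 lists CTSL2, CTSL and CTSL1 as synonyms of CTSV, beside a separate gene CTSL with the synonym CTSL1. CTSL2 was chosen for mention after its values were seen. It had 16795, 17202 and 16483 reads in wild type and 6379, 6708 and 6744 in knockout, or 923 ± 23.7 against 369 ± 6.10 CPM. CTSL2 fell 2.50-fold (-1.32 ± 0.04, edgeR adjusted p = 4.87e-15). The sequences of CTSL and CTSL2 were not compared here, so how far they share reads was not tested. Both rows were lower in knockout.

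CTSZ, a carboxypeptidase, had 2 reads in all 6 libraries and was not tested. A count of 0 in a library allows up to 3 counts, or 0.161 to 0.172 CPM. Such floors and counting intervals cover counting error only.

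**Figure D2:**
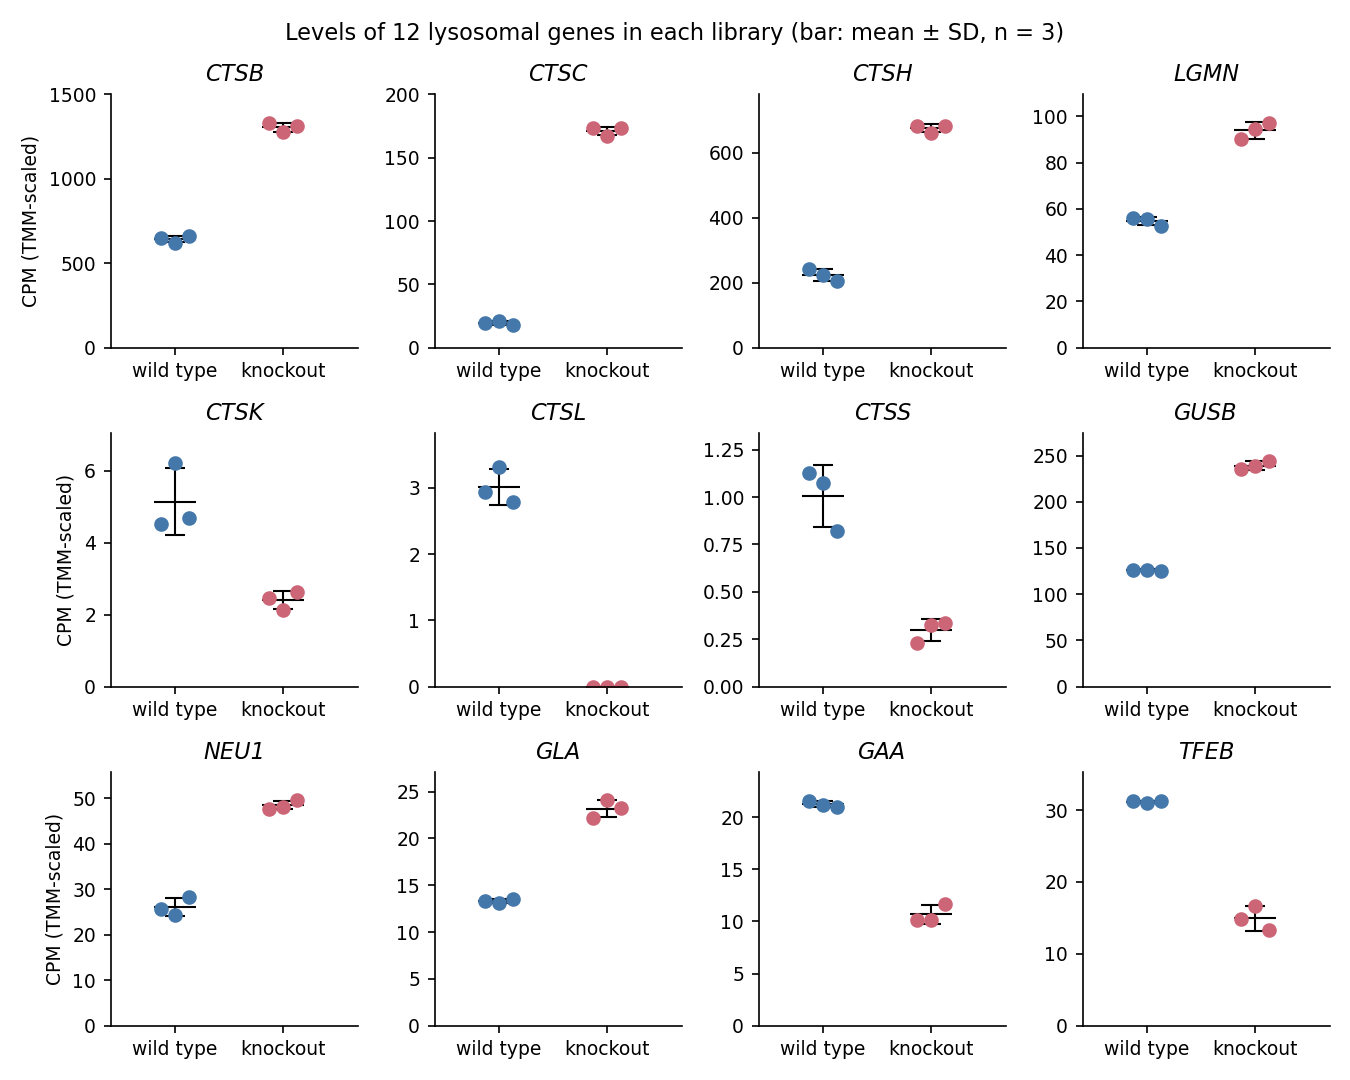
CPM of 12 lysosomal genes in each library (y axis, from 0 in each panel), with wild-type libraries in blue, knockout libraries in red and the mean ± SD of 3 libraries in black. CTSB, CTSC, CTSH, LGMN, GUSB, NEU1 and GLA are higher in every knockout library than in any wild-type library, and CTSK, CTSL, CTSS, GAA and TFEB lower.

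The make-up of the cathepsin transcripts differed between the genotypes. Shares were taken of the summed level per gene length (CPM per kb) of the 10 cathepsin genes among the 31 and CTSL2. CTSL2 and CTSD held the largest shares in wild type, at 29.0% ± 0.453 and 28.0% ± 0.591, ahead of CTSB at 22.8% ± 0.706 and CTSH at 11.1% ± 0.698. In knockout CTSB held 35.0% ± 0.154 and CTSH 25.3% ± 0.0818, followed by CTSD at 20.4% ± 0.163 and CTSL2 at 8.77% ± 0.148. The share of CTSC went from 0.417% ± 0.0366 to 2.75% ± 0.00570. Among these genes CTSD thus lost share without a change in its own level that passed the main test.

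**Figure D3:**
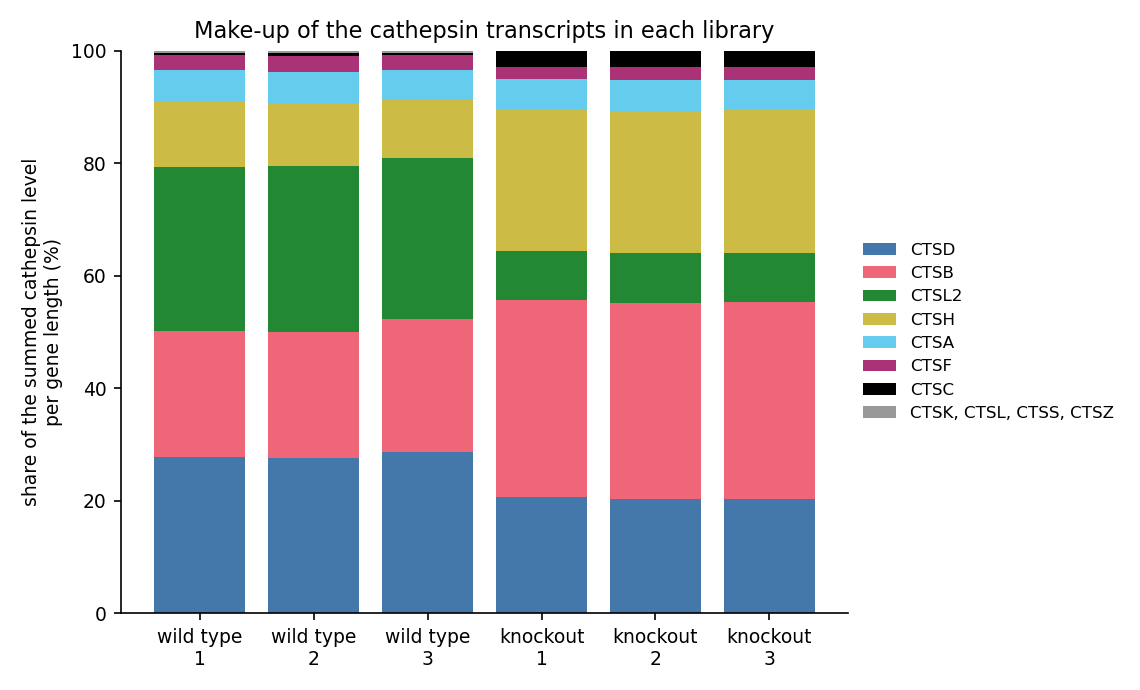
Share of each gene in the summed cathepsin level per gene length (y axis, percent) in each of the 6 libraries (x axis). CTSL2 takes about as much as CTSD in the wild-type libraries (29.0% and 28.0%), and CTSB and CTSH take 35.0% and 25.3% in the knockout libraries.

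The summed level of the 9 cysteine proteases went from 1025 ± 22.0 to 2331 ± 42.3 CPM, a ratio of 2.27. With CTSL2 added it went from 1949 ± 43.0 to 2700.4 ± 46.0 CPM, a ratio of 1.39. The sum over all 31 genes was 5833 ± 101 CPM in wild type and 7381 ± 89.8 CPM in knockout, a ratio of 1.27. With CTSL2 added it was 6757 ± 96.7 and 7750 ± 93.3 CPM, a ratio of 1.15. Most of the difference without CTSL2 lay in CTSB, CTSH and CD63. Without these the sums were 4470 ± 65.5 and 4622 ± 30.6 CPM, a ratio of 1.03. The genes left out are those with the largest gains in CPM, while genes that fell stayed in. That ratio was thus set in part by the choice.

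Among the glycosidases, which remove sugars from glycoproteins, glycolipids and glycogen, 4 of 7 rose, 1 fell and 2 did not pass. The share called, 71.4%, was near the 74.6% of all genes. GUSB, the beta-glucuronidase, was at 127, 127 and 125 CPM in wild type and 235, 238 and 244 CPM in knockout, and rose 1.90-fold (0.92 ± 0.04, edgeR adjusted p = 1.39e-12). It overlaps VKORC1L1 on the opposite strand by 3522 bases, and no source used here says whether the counting used strand, so reads of the shared part cannot be told apart. VKORC1L1 had 1786 reads in all libraries against 19739 of GUSB. NEU1, the lysosomal sialidase, was at 25.7, 24.3 and 28.2 CPM in wild type and 47.7, 48.1 and 49.5 CPM in knockout, a 1.86-fold rise (0.89 ± 0.07, edgeR adjusted p = 2.06e-09). GLA, the alpha-galactosidase, rose from 13.3 ± 0.184 to 23.2 ± 0.941 CPM (0.80 ± 0.08, edgeR adjusted p = 8.70e-08).

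GAA, the acid alpha-glucosidase that degrades glycogen, went against them. It was at 21.6, 21.2 and 21.0 CPM in wild type and 10.2, 10.1 and 11.7 CPM in knockout, and fell 1.99-fold (-0.99 ± 0.09, edgeR adjusted p = 1.94e-08). The median gene of its chromosome, 19, lay at -0.25, and with that median taken out the log2 fold change of GAA was -0.74 (edgeR adjusted p = 1.06e-06).

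GLB1, the beta-galactosidase, showed a small difference, from 30.0 ± 0.617 to 34.2 ± 1.73 CPM (0.19 ± 0.07, edgeR adjusted p = 0.0204). It did not pass without knockout replicate 2 (edgeR adjusted p = 0.101), without wild-type replicate 2 (0.0548), with scaling by library size only (0.0776) or with the chromosome medians taken out (0.119). HEXA, the alpha subunit of beta-hexosaminidase, was at 76.5 ± 1.94 and 81.9 ± 2.21 CPM (0.10 ± 0.05, edgeR adjusted p = 0.0880) and passed without wild-type replicate 3 (0.12, edgeR adjusted p = 0.0368) and with the chromosome medians taken out (0.38, edgeR adjusted p = 2.34e-06). NAGLU, which acts on heparan sulphate, had overlapping groups at 44.7 ± 2.89 and 45.9 ± 3.35 CPM (edgeR adjusted p = 0.650). With the chromosome medians taken out NAGLU passed (0.29, edgeR adjusted p = 0.00127), as did TPP1 (0.19, edgeR adjusted p = 0.00440).

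The lipid-degrading enzymes ASAH1 and LIPA were tested. ASAH1, the acid ceramidase, was at 86.1, 84.8 and 87.9 CPM in wild type and 134, 136 and 129 CPM in knockout, and rose 1.54-fold (0.62 ± 0.05, edgeR adjusted p = 1.24e-09). LIPA, which hydrolyses cholesteryl esters and triglycerides, went from 38.6 ± 1.24 to 43.6 ± 1.60 CPM (0.18 ± 0.06, edgeR adjusted p = 0.0197). That call was lost without knockout replicate 3 (edgeR adjusted p = 0.0840), and also under library-size scaling alone (0.0841), and with the chromosome medians taken out LIPA was lower (-0.27, edgeR adjusted p = 0.000899), since the median gene of chromosome 26 was higher by 0.45. LIPA also overlaps interferon-induced genes on the opposite strand. The longest overlap, 11008 bases, is with IFIT3, which had 95 reads in all libraries against 4453 of LIPA. IFIT2 (1413 reads) overlaps LIPA by 7729 bases, IFIT1 (75 reads) by 5972 and IFIT5 (6182 reads) by 399. SMPD1, the acid sphingomyelinase, had 0 reads in all 6 libraries.

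Of the activator proteins, which present lipids to the enzymes, PSAP had the highest level per gene length of all 31 genes in wild type. It was at 1572, 1563 and 1727 CPM in wild type and 1472, 1438 and 1442 CPM in knockout, a log2 fold change of -0.16 ± 0.04 (edgeR adjusted p = 0.00329). The median gene of its chromosome, 28, was lower by more (-0.57). With that median taken out PSAP was therefore higher by construction (0.41, edgeR adjusted p = 1.70e-07). GM2A, the activator for ganglioside breakdown, had 8 reads in wild type and 34 in knockout and fell below the filter. In a fit with no filter its log2 fold change was 2.06 ± 0.64 (edgeR adjusted p = 0.00286), and all knockout libraries (0.631, 0.544 and 0.725 CPM) lay above all wild-type libraries (0.113, 0.214 and 0.109 CPM).

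The regulators differed from each other. TFEB (ENSBTAG00000012384, chromosome 23, 15499140 to 15547643) was at 31.2, 31.0 and 31.2 CPM in the wild-type libraries and at 14.8, 16.7 and 13.3 CPM in the knockout libraries. The groups were far apart, and TFEB fell 2.09-fold (-1.06 ± 0.09, edgeR adjusted p = 3.34e-09). With any 1 library left out the log2 fold change was -1.15 to -0.98. TFE3, a related factor with the same DNA target, was at 83.7 ± 1.87 and 80.2 ± 1.07 CPM, and its fold of 0.959 (95% interval 0.892 to 1.03) did not pass the test, although its groups did not overlap. Per gene length TFE3 stood above TFEB in both genotypes, at 24.9 against 12.7 CPM per kb in wild type and 23.8 against 6.07 CPM per kb in knockout. RNA levels do not show where these factors are in the cell.

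Levels per gene length spanned a wide range. In wild type PSAP (605 CPM per kb), CD63 (501), CTSD (392) and CTSB (319) were the highest of the 31 genes, and in knockout the order was CD63 (785), CTSB (647), PSAP (541) and CTSH (469). PSAP, CD63, CTSD and CTSB each exceeded at least 98.2% of all genes tested in wild type. CTSC moved from place 25 to place 12 among the 31 genes, and from above 39.0% to above 86.9% of all genes tested. The wild-type levels of NAGLU, TPP1 and MCOLN1 (18.9 ± 1.23, 17.7 ± 0.127 and 16.3 ± 0.627 CPM per kb) were neighbours in the order, as were those of LIPA, TFEB and GLB1 (12.8 ± 0.412, 12.7 ± 0.0424 and 12.1 ± 0.248 CPM per kb). LIPA and TFEB differed there by less than the SD of LIPA. In knockout TFEB stood at 6.07 ± 0.698 CPM per kb and LIPA at 14.4 ± 0.529 CPM per kb.

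**Figure D4:**
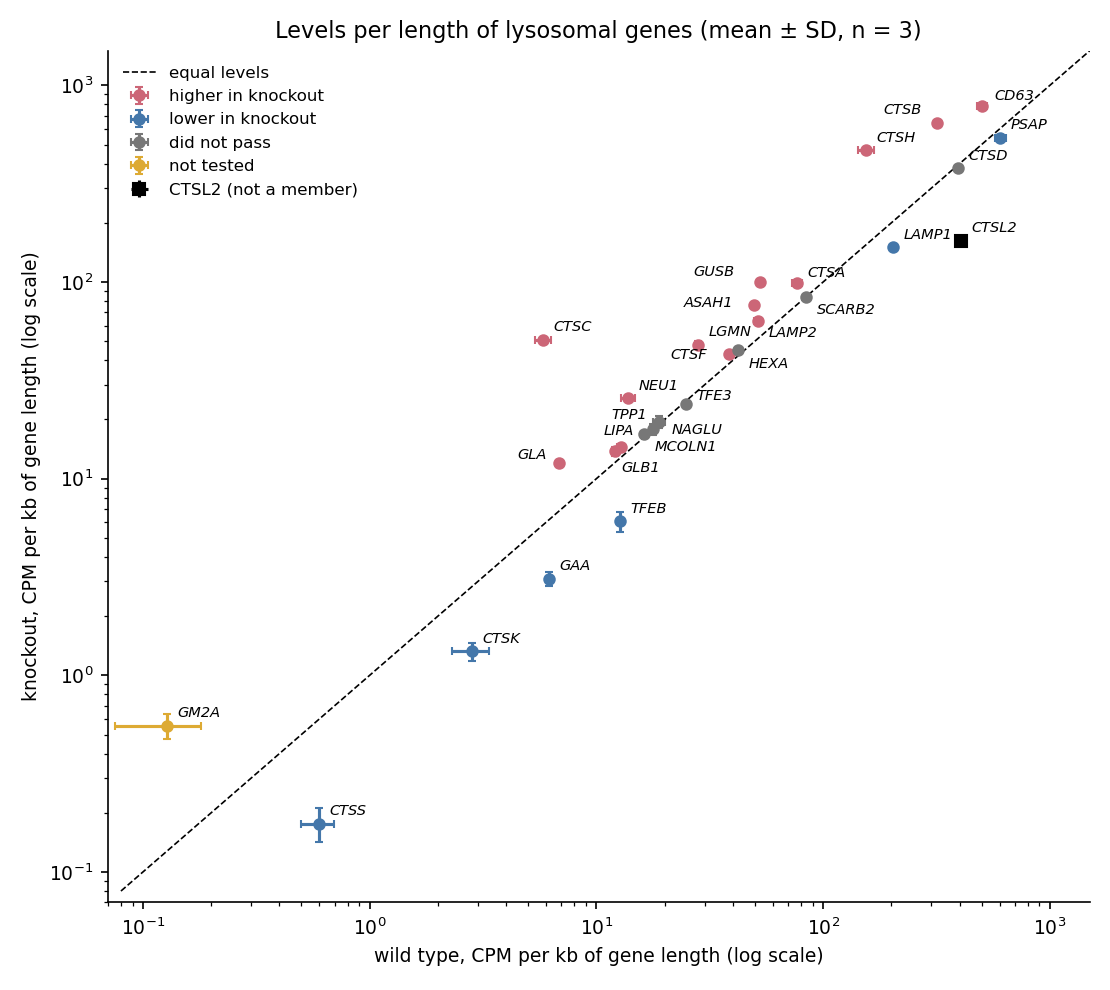
Mean level per gene length in wild-type (x axis) and knockout libraries (y axis), both in CPM per kb on log scales, with SD bars over 3 libraries; colours give the call and the dashed line marks equal levels. CTSC, at 5.83 and 50.9 CPM per kb, lies farthest above the line, and CTSL2, drawn as a square, lies below it at 406 and 162 CPM per kb. CTSL, CTSZ and SMPD1, at 0 in 1 or both genotypes, are not drawn.

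Further genes of the same organelle were described from lists that hold none of the 31 genes. Of 30 tested soluble hydrolases outside the 31, 17 rose and 10 fell, or 56.7% and 33.3%, against 37.1% and 37.6% of all genes (median log2 fold change 0.27, against -0.01 over all genes). This list named 34 symbols, of which 31 were found in the count table. CTSV was not found by that symbol, so the CTSL2 row, which fell and whose name is a synonym of CTSV, is not in these counts. PLBD2, a phospholipase B-like protein, rose from 251 ± 10.8 to 786 ± 5.01 CPM (1.65 ± 0.04), NAAA, an amidase of fatty acid ethanolamides, rose by 1.46 ± 0.15 and the arylsulphatase gene ARSB by 0.85 ± 0.05 on the log2 scale. NPC2, which binds cholesterol in the lumen, fell from 754 ± 14.3 to 291 ± 4.28 CPM (-1.37 ± 0.04), and the sulphatase gene IDS (-0.86 ± 0.06) and the cathepsin gene CTSO (-0.82 ± 0.18) fell too.

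Of 22 tested other membrane proteins of the lysosome, 14 fell and 5 rose (median -0.32). These are 63.6% and 22.7%, beside 37.6% and 37.1% of all genes. The cystine exporter gene CTNS fell from 25.3 ± 2.89 to 4.72 ± 0.741 CPM (-2.42 ± 0.12), and the glycoprotein gene GPNMB (-1.33 ± 0.09) and the cation channel gene TPCN2 (-1.03 ± 0.08) fell as well. ABCA2, a lipid transporter whose row the count table types as a pseudogene, rose by 1.08 ± 0.13, OSTM1, the partner of the chloride transporter CLCN7, by 0.67 ± 0.07, and CD164 by 0.29 ± 0.05 on the log2 scale.

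Of 19 tested subunits of the V-ATPase, the proton pump that acidifies the lumen, 9 rose and 6 fell (median 0.12), and the share called, 78.9%, was near the 74.6% of all genes. ATP6V0A1 fell from 227 ± 4.46 to 70.9 ± 1.82 CPM (-1.68 ± 0.05), and ATP6V1C1 and ATP6V1H, both on chromosome 14 where the median gene lay at -0.82, fell by 0.96 and 0.66 on the log2 scale. ATP6V0E2 (6 reads in wild type and 58 in knockout, 3.22 ± 0.57), ATP6V1G1 (81.3 ± 3.07 to 195 ± 2.47 CPM, 1.26 ± 0.05) and ATP6AP2 (0.64 ± 0.04) rose. ATP6V0E2 had at least 10 reads in knockout libraries only, so its direction was fixed in part by the filter. With the chromosome medians taken out, 9 subunits rose and 2 fell.

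Of 26 tested genes for sorting to the lysosome and fusion with it, 14 fell and 8 rose (median -0.35), or 53.8% and 30.8%, beside 37.6% and 37.1% of all genes. The sorting receptor gene SORT1 fell from 42.2 ± 5.03 to 19.1 ± 0.901 CPM (-1.15 ± 0.09), as did VPS11 (-0.93 ± 0.06) and VPS16 (-0.91 ± 0.06), subunits of the tethering complexes that act in fusion. The mannose-6-phosphate receptors differed in direction: M6PR rose from 144 ± 8.48 to 212 ± 4.89 CPM (0.56 ± 0.05), and IGF2R fell from 117 ± 8.56 to 81.2 ± 2.66 CPM (-0.53 ± 0.06, named after its values were seen). AP1M1 and GGA2, adaptors for traffic from the Golgi, rose by 0.69 ± 0.06 and 0.46 ± 0.06 on the log2 scale. With the chromosome medians taken out, 5 of these genes rose and 14 fell.

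The list of other MiT/TFE factors and of the scaffold that holds mTORC1 at the lysosome had 13 tested genes, of which 1 rose and 6 fell (median -0.09), a share called of 53.8% beside 74.6% of all genes. LAMTOR2 (-0.81 ± 0.07) and the Rag GTPase genes RRAGB (-0.76 ± 0.10) and RRAGA (-0.71 ± 0.05) fell, and FNIP2, a partner of folliculin, rose (0.79 ± 0.08). MITF, a relative of TFEB, was at 3.18 ± 0.192 CPM in wild type and 3.61 ± 0.173 CPM in knockout and did not pass, and TFEC had 1 read in each genotype. With the chromosome medians taken out, 2 of the 13 rose and 4 fell.

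Autophagy delivers cytoplasm to the lysosome, and of its 28 tested genes 14 fell and 7 rose (median -0.19), and the share called, 75.0%, was near the 74.6% of all genes. The cargo receptor gene SQSTM1 fell from 797 ± 26.4 to 335 ± 9.81 CPM (-1.25 ± 0.04), NBR1, another receptor, fell from 174 ± 2.13 to 75.7 ± 1.80 CPM, and RB1CC1, a scaffold of the initiating kinase complex, by 1.43 ± 0.06 on the log2 scale. RB1CC1 lies on chromosome 14, whose median gene was at -0.82. ULK2 (0.95 ± 0.14), CALCOCO2 (0.47 ± 0.08) and MAP1LC3B (0.43 ± 0.05) rose. Of the cystatins, which inhibit cysteine cathepsins, 3 were tested. CST3 rose from 590 ± 34.3 to 909 ± 8.55 CPM (0.62 ± 0.05) and CSTB from 322 ± 9.21 to 405 ± 6.36 CPM (0.33 ± 0.04), in a comparison that called 37.1% of all genes higher. CSTA went from 0.237 ± 0.0585 to 4.01 ± 0.579 CPM (4.04 ± 0.31) and passed the filter only through the knockout libraries, which fixed its direction in part.

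**Figure D5:**
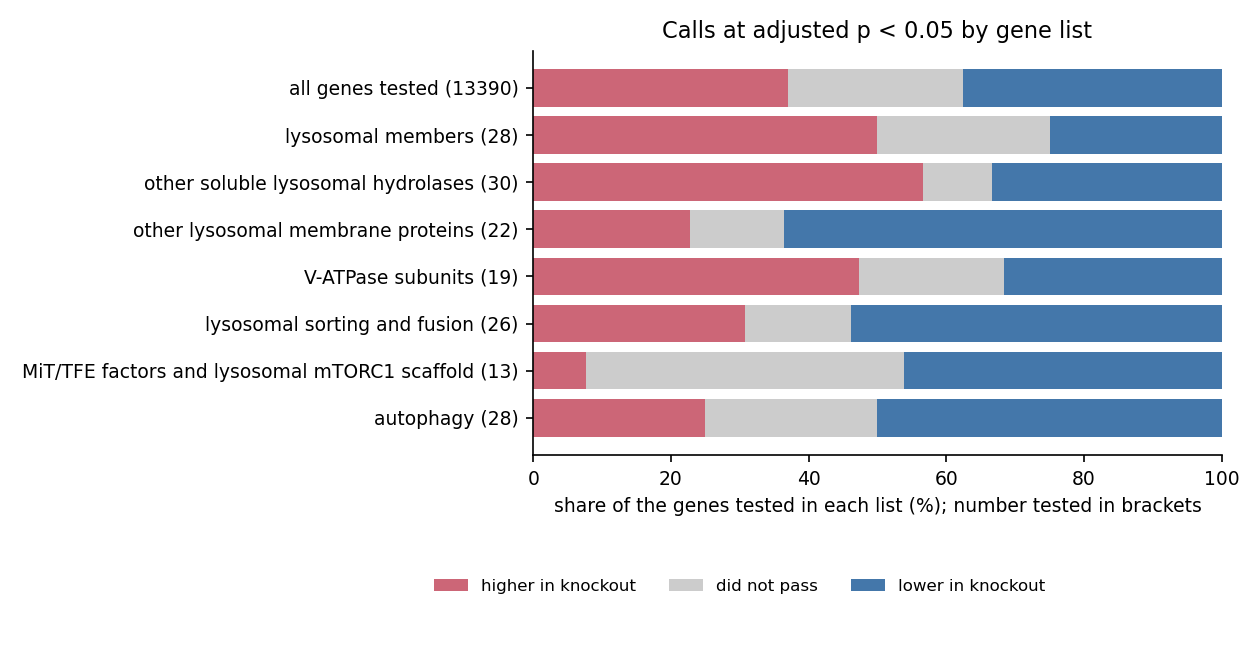
Share of tested genes called higher (red) or lower (blue) in knockout, or not called (grey), at an edgeR adjusted p under 0.05, for all genes and for the 31 lysosomal genes and 6 related lists (x axis in percent, number tested in brackets). Higher calls made up 50.0% of the lysosomal genes and 56.7% of the other soluble hydrolases, and lower calls 63.6% of the other membrane proteins. The lists were given no test against other genes.

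Defining markers of macrophages and osteoclasts, cells with many lysosomes, were read at low levels. Besides PTPRC, the leukocyte and macrophage markers LYZ (0 reads) and TYROBP (3 and 1 reads) were almost unread, and the osteoclast list had 3 reads in all. Of 10 leukocyte and macrophage markers 4 were tested: CSF1R (16 and 87 reads) and AIF1 rose, CD74 fell and CD163 did not pass. CSF1R and CD74 had at least 10 reads in the libraries of only 1 genotype, as had all 3 tested endothelial markers and COL1A2 of the fibroblast list, so their directions were fixed in part by the filter. The 10 leukocyte and macrophage markers summed to 10.1 to 11.9 CPM in wild type and 16.6 to 18.3 CPM in knockout. Most of this was AIF1. The fibroblast list (8 markers, of which 4 fell and 1 rose among 6 tested) summed to 1054 to 1249 CPM in wild type and 243 to 256 CPM in knockout, most of it DCN, with 21.9 and 7.71 CPM of PDGFRA. The endothelial list (5 markers, of which 2 fell and 1 rose among 3 tested) summed to 4.50 to 5.79 and 30.8 to 32.6 CPM, most of the latter PECAM1, while CDH5 had 18 reads in wild type and 1 in knockout. The epithelial list (8 markers, of which 5 fell and 1 rose) summed to 15902 to 17183 and 6441 to 6643 CPM. Beside the calls in these marker lists, 37.1% of all genes tested were called higher and 37.6% lower. For the epithelial list the share called, 75.0%, was near the 74.6% of all genes. The part of these differences in the levels of the lysosomal genes was not tested.

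In the authors' deposited table, 22 of the 31 genes are listed, 15 with a positive and 7 with a negative log2 fold change. That table lists 9532 genes in all, whose split by sign was not counted here. These counts are thus not read as a result about the 31 genes. The authors' deposited table gives 3.14 for CTSC, 1.03 for CTSB, -1.05 for TFEB and 2.13 for GM2A.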

How the data were processed

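The authors deposited raw counts per gene for 6 libraries, as whole numbers, and a table of their own comparison with a log2 fold change and an adjusted p-value for 9532 genes. HISAT2 2.0.5 and featureCounts 1.5.0-p3 are named, without roles or settings, per the submitters' processing notes. Genome build, annotation version and strand setting were not given in the sources used here.

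Both the lysosomal genes and the other lists were chosen with earlier results of these data known. Of rows with equal symbols the most counted one was taken. The genotypes were compared in edgeR 4.0.16 under R 4.3.3, with TMM scaling, filterByExpr (minimum count 10, minimum total 15), a robust quasi-likelihood test, and p adjusted by Benjamini-Hochberg with 0.05 as the threshold. CPM are per 1000000 counts of the TMM-scaled library. Each SE was worked back from the F statistic (size of the log2 change divided by the root of F), so it adds nothing to the p-value. The procedure was tested on simulated data, with 50 genes at each size of change. It called 36% of true 1.2-fold changes, 76% of 1.5-fold, 82% of 2-fold and 98% of 4-fold ones, and 3 of 13190 unchanged genes. Small changes can thus be missed. A gene at 0 in a genotype has a bound against 3 counts over the group. Named were KLF6, all 31 genes, and from each other pathway list up to 3 called genes per direction with the largest change, beside the cell type markers. Alternatives used DESeq2 1.42.0, limma 3.58.1 (voom), other scalings and filters, chromosome medians removed, a replicate block and each library left out. The chromosome medians came from these same data and were taken as exact, so p-values of that alternative do not cover their error. Equal replicate numbers were not taken to pair the libraries, since the labels do not say that they do.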

Additional observations from a re-analysis of the deposited data

How the results depend on the processing

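Over 15 alternatives, 16 of the 21 lysosomal genes called kept their direction and their call in each alternative that gave them a value, among them CTSB, CTSC, CTSH, GUSB, NEU1, GAA and TFEB. The 16 include CTSL and CTSS, whose direction was fixed in part by the filter. With the chromosome medians taken out PSAP (0.41), LIPA (-0.27), CTSD (0.21) and SCARB2 (0.17) were called on the other side of 0, by the construction of that alternative, and MCOLN1 (-0.06) changed sign without a call. Of the 7 genes that did not pass, 2 kept 1 sign throughout (HEXA and TFE3). The number of lysosomal genes that rose was 9 with a change of at least 1.5-fold also required, and 11 to 18 under the others (13 to 16 with a library left out). The number that fell was 5 to 8 over all of these. With the chromosome medians taken out, 2 V-ATPase subunits fell, 5 sorting genes rose and 2 genes of the mTORC1 scaffold list rose. That list also had 2 that rose with no filter, and 1 to 2 with a library left out (2 without wild-type replicate 3, where 16 lysosomal genes rose and 7 fell). The fit with the replicate number as a block gave 14 lysosomal genes that rose and 7 that fell. To look for pairing, each gene's mean log CPM within its genotype was first taken out. The remainders of same-numbered knockout and wild-type libraries then correlated at -0.04, 0.07 and -0.02. Those of libraries with unlike numbers correlated at -0.095 to 0.12, and the numbers were not taken to pair them. With so few libraries this cannot exclude that same-numbered ones share a culture or day. With CTSL2 in place of CTSL, chosen after seeing the data, 14 rose and 7 fell. The promoter motif description planned at the start was not run. Few or no reads limit what can be said of GM2A, CTSZ, CTSS and SMPD1, and the reason was not tested.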

Other observations

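Called lysosomal genes that share a chromosome lay on the same side of 0 in some cases and not in others. On chromosome 21, CTSH (1.60) and LGMN (0.78) were both higher on the log2 scale, as were CTSC (3.13) and CTSF (0.15) on chromosome 29 and GLA (0.80) and LAMP2 (0.30) on the X chromosome, and CTSK (-1.10) and CTSS (-1.73) on chromosome 3 were both lower. On chromosome 23, TFEB (-1.06) and NEU1 (0.89) lay on opposite sides, and on chromosome 8 CTSB (1.02) was higher and CTSL, with 0 knockout reads, lower. The chromosome medians over tested genes ran from -0.82 on chromosome 14 to 0.48 on chromosome 20.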
